A study of Mus musculus with 2 samples.

Results

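Transcripts of 6 genes of the epithelial serine protease system were followed through single cells of the mouse cervix. They are the kallikreins Klk7, Klk10 and Klk11, the protease Prss27 and the Kazal-type inhibitors Spink5 and Spink12. The genes were taken by symbol from the 31053 genes of the deposited matrices, where all 6 are listed. They were chosen on their levels per epithelial layer and library, with earlier values of these data known, so what follows describes those levels and tests nothing. The C57BL6/129 mice were all ovariectomised at 7 to 8 weeks of age and left to recover for 2 weeks. Control mice then went untreated for the 15 days of the experiment. The progesterone mice were given estradiol (E2, 100 µg per day in corn oil, under the skin) on 2 days to induce the progesterone receptor. A 25 mg pellet built to last 21 days, with an estimated release of 1 mg per day, followed. Each group is 1 library pooled from the cervices of 9 mice after vaginal tissue was cut away. Without replicates, no test compares the groups. Estradiol priming, injection, pellet and library cannot be told apart from progesterone.

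Stratified squamous epithelium sheds its outer cells by cutting the proteins that hold neighbouring cells together. Kallikreins are secreted serine proteases that cut corneodesmosin and desmogleins in this layer, and they can activate one another and the receptor PAR2, the product of F2rl1. Kazal-type inhibitors hold them in check. Spink5 encodes LEKTI, a chain of inhibitor domains that blocks several kallikreins and whose loss in people causes the skin barrier disease Netherton syndrome. Spink12 is a smaller gene of the same family. Klk7 encodes a chymotrypsin-like enzyme of the outer epidermis and Klk11 a trypsin-like one. Klk10 is another kallikrein of squamous epithelia, and Prss27 encodes marapsin, a trypsin-like protease also known from squamous epithelia.

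In the GENCODE annotation of GRCm38 (mm10), the build in the submitters' processing notes, Klk11 (chr7:43774604-43779263), Klk10 (chr7:43781035-43785410) and Klk7 (chr7:43811294-43816359) lie on the plus strand within 41.8 kb. Prss27 is at chr17:24038144-24045954. All are protein-coding. Klk10 and Klk11 overlap 2310002F09Rik on the opposite strand, and the sources used here do not say whether counting used the strand, so their low counts could hold antisense reads. The 250 bases before the transcription start were read for the 4 proteases only. Of these, Klk10, Klk11 and Prss27 shared the cluster where they were highest, and Klk7 was not detected. RefSeq promoters (GRCm38.p6) of all 4 were found by symbol. The promoters of the inhibitors were not looked up, so proteases and inhibitors are not compared by these letters. Capitals mark AGAACA or its reverse complement TGTTCT, the half-site letters bound by steroid receptors of the progesterone and glucocorticoid receptor group, and all windows are on the plus strand, 5′ to 3′.

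Klk10, chr7:43780804-43781053: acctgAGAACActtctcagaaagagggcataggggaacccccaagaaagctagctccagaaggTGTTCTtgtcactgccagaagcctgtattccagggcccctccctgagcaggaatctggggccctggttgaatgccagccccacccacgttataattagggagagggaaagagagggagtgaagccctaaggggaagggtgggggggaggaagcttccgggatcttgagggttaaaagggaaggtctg

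Klk11, second start, chr7:43776079-43776328: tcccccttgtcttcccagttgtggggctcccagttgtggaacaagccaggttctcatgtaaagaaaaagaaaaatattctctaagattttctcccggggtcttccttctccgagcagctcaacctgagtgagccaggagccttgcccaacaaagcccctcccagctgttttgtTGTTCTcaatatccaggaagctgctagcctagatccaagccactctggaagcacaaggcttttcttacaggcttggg

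Prss27, chr17:24037993-24038242: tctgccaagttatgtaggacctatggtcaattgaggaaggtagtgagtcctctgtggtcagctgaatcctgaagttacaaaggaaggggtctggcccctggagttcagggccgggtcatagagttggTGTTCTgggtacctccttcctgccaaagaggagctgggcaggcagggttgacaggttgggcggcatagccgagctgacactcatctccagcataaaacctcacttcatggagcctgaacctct

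Klk10 held 2 matches, which do not overlap. The window of the second Klk11 start held 1 and that of Prss27 held 1, while the windows of Klk7 and of the first Klk11 start (chr7:43774367-43774616) held none. On both strands 16.1% of 32817 promoter windows of the same length, none from chr18, held these letters. None of these 5 windows held the AP-1 letters TGANTCA, present in 6.75% of those 32817 windows, or the TATA letters TATAAA, present in 12.4%. A match or its absence describes the letters of the window only.

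The control library gave 4579 analysed cells with a median of 3733 unique molecular identifiers (UMIs, 1 per captured molecule), and the progesterone library 8541 cells with a median of 4151. The libraries shared 19 barcodes. Levels are UMIs per 1000000 UMIs of a class of cells (CPM). Brackets hold 95% intervals, exact Poisson for levels and exact conditional binomial for ratios, and describe counting error alone. A 3′ UMI counts a molecule once whatever its length, so no length scaling was used, but capture differs between genes. A gene was called higher or lower where the whole interval of a ratio lay past 2-fold. Member genes took no part in the clustering. Classes were named from fixed markers by thresholds set after the clusters had been seen.

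Basal-like cells numbered 1385 in the control and 3337 in the progesterone library, and suprabasal-like cells 1294 and 1149. The suprabasal keratins Krt13 and Krt10 were at 1771 and 463 CPM in control suprabasal-like cells, against 282 and 45.4 CPM in basal-like cells. All suprabasal markers summed to 5995 against 1498 CPM in the control and 5405 against 563 CPM with progesterone. The basal markers did not fall, at 34735 against 30180 CPM and 16580 against 13014 CPM. Control cluster 1 held 62849 CPM of them. The 2 classes are thus set apart by suprabasal markers and not by loss of basal ones. Different clusters filled these classes. Control suprabasal-like cells came mostly from cluster 8 (757 cells) and cluster 1 (410 cells, led by Krt16, Krt6b and Mt4), progesterone ones from cluster 0 (1103 cells, led by Timp3 and Krt10), where the control had 127. Cluster 4 held 557 control and 26 progesterone basal-like cells, cluster 13 held 103 and 1439. Luminal-like cells, rich in Krt8 and Krt18, numbered 13 and 1700, so their 2 libraries are not compared.

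Clusters 10 and 20 carried most protease UMIs and stayed unnamed. Cluster 10 (598 control and 36 progesterone cells) had Spink12, Ltf, Ifitm1 and Sprr2f among its top 10 genes and carried luminal beside squamous markers. Krt8 stood at 736 CPM and Krt13 at 3288 CPM in its control cells. Cluster 20 (64 and 16 cells) was led by Crct1, Lce3a and Clca3b, with the cornified layer gene Cnfn and with Psca also among its top 10 genes. Part of this profile was that of the control cells. Control first, Crct1 read 6379 and 894 CPM, Cnfn 8372 and 265 CPM, and Lce3b 3414 and 0 CPM. Clca3b (3538 and 6218 CPM) and Psca (22838 and 28477 CPM) were high in both libraries. The cells of cluster 20 may thus differ in kind between libraries, which was not tested. Cluster 20 scored for luminal and for neutrophil markers alike. Its neutrophil score rested on S100a8 (13047 CPM in the control) and S100a9 (21292 CPM), while Retnlg, Csf3r and Cxcr2, which define neutrophils, stood at 7.17, 16.7 and 14.3 CPM. All 6 neutrophil markers summed to 34435 CPM there in the control and 23072 CPM with progesterone, where Retnlg and Cxcr2 were at 0. The median depth of cluster 20 was 6806 UMIs in control cells, below that of clusters 1 and 5 (8315 and 7102.5 UMIs), and 13746 UMIs in progesterone cells. Both are above the medians of all analysed cells, 3733 UMIs in the control and 4151 with progesterone. Doublets were removed before clustering. Without that removal the cluster highest in Prss27 held 142 control cells in place of 64. The part of any doublets that remain was not tested.

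Over all analysed cells, each of the 5 detected genes was lower in the progesterone library. The counts fell from 23650 to 6126 UMIs for Spink5 and from 9797 to 681 for Spink12 although the progesterone library was the deeper one. Prss27 had 3763 and 1955 UMIs, Klk10 had 298 and 40, and Klk11 had 64 and 30. No Klk7 UMI was found in either library, which allows a level of at most 0.149 CPM in the control and 0.0787 CPM in the progesterone library by the 3 counts that a 0 allows. All 5 were called lower, where 3.49% of 14268 genes were called lower and 5.02% higher. The folds were 7.31 [7.11 to 7.52] for Spink5, 27.2 [25.2 to 29.5] for Spink12, 14.1 [10.1 to 20.2] for Klk10, 4.04 [2.58 to 6.46] for Klk11 and 3.65 [3.45 to 3.85] for Prss27. Fewer cells of a kind and less RNA per cell cannot be told apart in these sums.

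**Figure D1:**
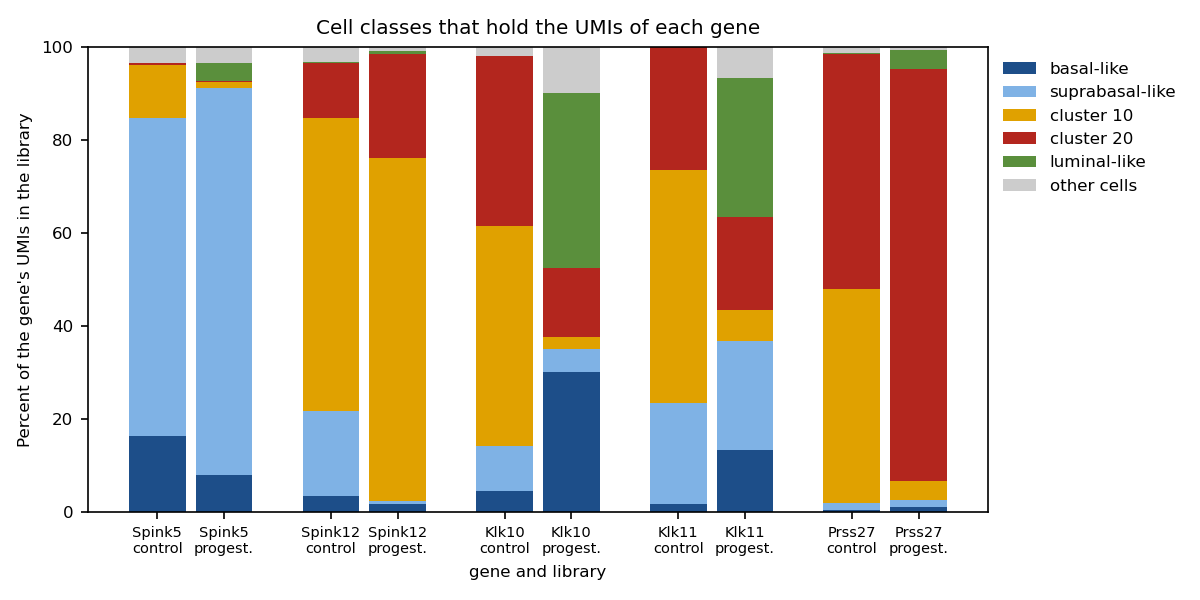
Percent of each gene's UMIs (vertical axis) found in each cell class, by gene and library; each bar sums to 100%. Spink5 lay mostly in suprabasal-like cells (68.3% of control and 83.3% of progesterone UMIs), Spink12 mostly in cluster 10 (63.1% and 73.9%), and Prss27 mostly in clusters 10 and 20 of the control and cluster 20 of the progesterone library (88.7%).

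Spink5 was highest in the squamous layers. The gene lies on the plus strand at chr18:43963235-44022501, and Spink12 (chr18:44104407-44108543, also plus strand) is 81.9 kb away. The control level of Spink5 was 625 CPM [606 to 645] in basal-like and 2076 CPM [2044 to 2108] in suprabasal-like cells. With progesterone the levels were 29.98 CPM [27.4 to 32.8] and 671 CPM [652 to 689]. Suprabasal-like cells thus stood above basal-like ones in both libraries, by 3.32-fold [3.21 to 3.44] in the control and by 22.4-fold [20.4 to 24.6] with progesterone. Of 11104 genes in that control comparison 2.82% were called higher and 6.29% lower, and of 12067 with progesterone 3.07% and 5.01%.

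The highest Spink5 level of a cluster with at least 50 cells was 3831 CPM [3765 to 3899] in control cluster 1, which held 53.5% of the control's Spink5 UMIs. Its cells carried a median of 22 UMIs of the gene and at most 157. Control cluster 0 followed with 2325 CPM [2210 to 2445]. Cycling basal-like cluster 5 (911 CPM) and cluster 10 (756 CPM) came next, and their intervals did not overlap. Cluster 4 (608 CPM [580 to 637]), cluster 9 (565 CPM [512 to 623]) and cluster 8 (521 CPM [499 to 545]) followed, and the interval of cluster 9 overlapped both others. Cluster 9 (188 control cells) stayed unnamed, since it carried neutrophil markers together with Krt5. Cluster 16, a shallow cluster led by Postn and the urothelial genes Upk1a and Upk3a, stood at 461 CPM [368 to 570], and its interval overlapped that of cluster 3 (395 CPM [305 to 504]). It was 4.50-fold below suprabasal-like cells in the control, where 1.25% of genes were called lower and 5.92% higher, and lower again with progesterone (55.9 against 671 CPM), where 0.895% were lower and 2.93% higher. Progesterone luminal-like cells, the only large luminal group, read 25.6 CPM [22.4 to 29.1], 26.2-fold [23.0 to 30.04] below the suprabasal-like cells of that library, where 3.04% of genes were called lower and 11.1% higher. Fibroblast-like cells read 346 and 183 CPM, but from 4 of 77 control and 2 of 115 progesterone cells.

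Between libraries, Spink5 was 20.8-fold [18.96 to 23.0] lower with progesterone in basal-like cells and 3.10-fold [2.999 to 3.19] lower in suprabasal-like cells. Of 11992 genes in basal-like cells 3.43% were called lower, and of 11112 in suprabasal-like cells 2.81%. Of the members with at least 20 UMIs, 2 of 4 were called lower in basal-like cells (Spink5 and Spink12) and 3 of 5 in suprabasal-like cells (these and Klk10). Neutrophil-like cells, which should lack Spink5, read 88.1 CPM [53.0 to 138] in the control. With progesterone they read 7.53 CPM [1.55 to 22.01], 11.7-fold [3.44 to 61.7] lower, so background moved the same way. Within basal-like clusters that both libraries filled, Spink5 read 145 and 26.4 CPM in cluster 2, 911 and 116 CPM in cluster 5, and 87.4 and 6.12 CPM in cluster 13, which is 5.50-fold, 7.83-fold and 14.3-fold lower with progesterone. Cluster 5 lay above the neutrophil-like interval in both libraries. The control interval of cluster 2 (120 to 174 CPM) overlapped it, and both values of cluster 13 lay within it, so cluster 13 cannot be told from background. Erythrocyte-like cells, which should also lack Spink5, read higher. Their 31 control cells gave 1027 CPM of the 2 inhibitors, 90.4% of it Spink5, and their 143 progesterone cells 25.7 CPM of Spink5. None of these basal-like clusters lay above them in the control, and with progesterone only cluster 5 was clearly above. The part of background in these folds was not tested. Cluster 16 gave 461 and 55.9 CPM, 8.26-fold [4.98 to 14.4] lower. Cluster 0 was the one suprabasal-like cluster that reached 50 cells in both libraries. Spink5 was 3.49-fold [3.29 to 3.70] lower in it, where 0.879% of 10238 genes were called lower and 0.811% higher. One of its 127 control cells held 304 of the 1519 UMIs.

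The suprabasal call depended on cluster 1. Without that cluster, a setting added after seeing the data, the log2 ratio of progesterone over control moved from -1.63 to -0.26, which ends the call. In the control, cluster 8 (521 CPM) lay below the progesterone level of cluster 0 (666 CPM).

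**Figure D2:**
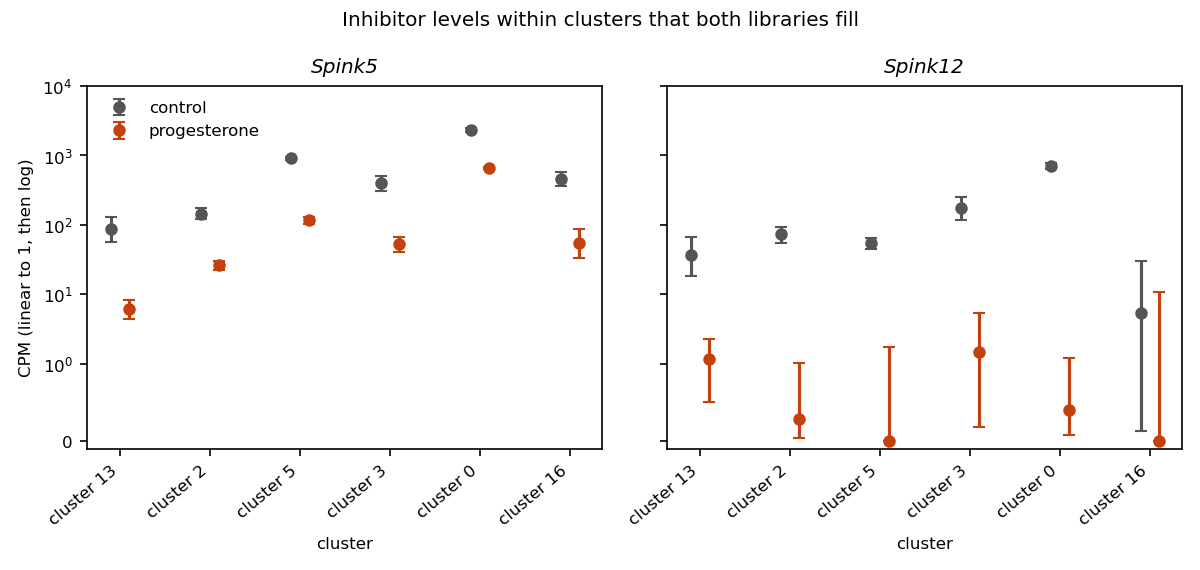
Spink5 and Spink12 levels (CPM, linear up to 1 and log above) in the 6 clusters that hold at least 50 epithelial cells of each library, with exact Poisson 95% intervals. Spink5 was lower with progesterone in all 6, from 3.49-fold in cluster 0 to 14.3-fold in cluster 13, whose values lie within those of neutrophil-like cells, and Spink12 stood at or below 1.49 CPM in the progesterone cells of each.

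Cells of the squamous clusters were also ordered by the share of suprabasal marker UMIs among their squamous marker UMIs, in 5 equal ranges. In the control, Spink5 read 1436 CPM [1414 to 1458] in the lowest range, 1854 CPM [1792 to 1917] in the next, 909 CPM [832 to 990] at 40 to 60% and 732 CPM [557 to 944] at 60 to 80%. In the progesterone library it read 83.6, 772, 987 and 1675 CPM over the same ranges, so of these 4 ranges it was highest at 60 to 80%. The range above 80% held 3 control cells and 1 progesterone cell and is not described. The progesterone to control ratio was 0.0583 [0.0553 to 0.0613] in the lowest range, 0.416 [0.395 to 0.439] in the next and 1.09 [0.978 to 1.21] at 40 to 60%. The lowest range is not the same population in both libraries: 43.3% of its control cells but 14.2% of its progesterone cells came from suprabasal-like clusters. The range at 60 to 80% held 20 control and 47 progesterone cells.

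**Figure D3:**
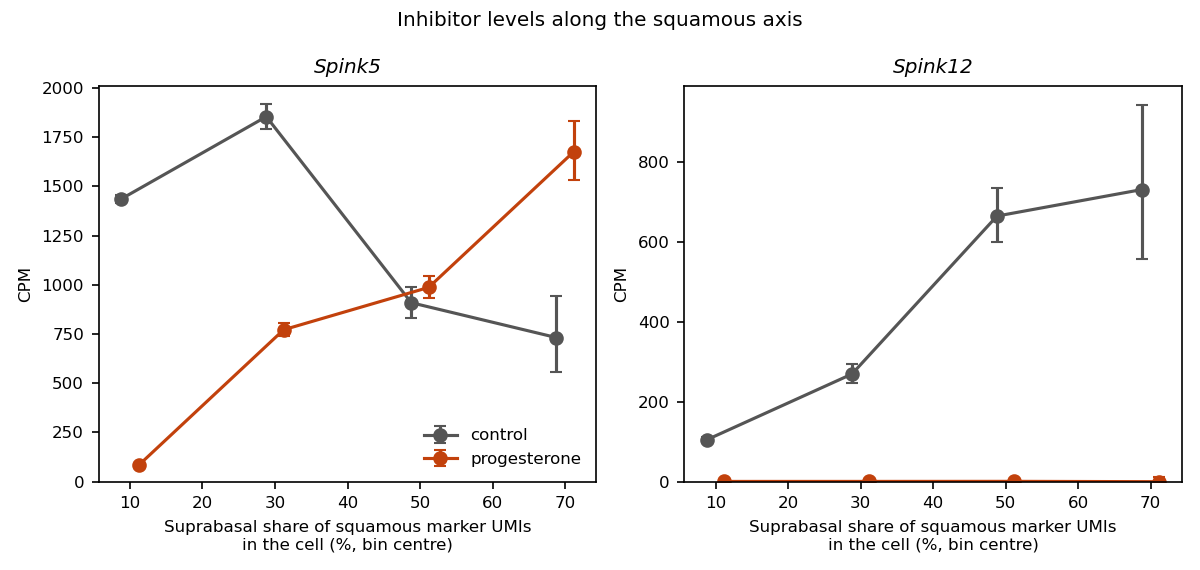
Spink5 and Spink12 levels (CPM) in squamous-like cells against the share of suprabasal marker UMIs in the cell (%, centre of 4 ranges), with exact Poisson 95% intervals. Control Spink5 was highest at shares of 20 to 40% and progesterone Spink5 at 60 to 80%, while Spink12 read 105 to 732 CPM in the control and under 1 CPM with progesterone.

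Shares of cells with a Spink5 UMI were compared after thinning each cell to 2000 UMIs. In the basal-like class 371 of 979 control cells (37.9% [34.8 to 41.0], exact Clopper-Pearson) and 87 of 3064 progesterone cells (2.84% [2.28 to 3.49]) had one. In suprabasal-like cells the shares were 58.8% [55.9 to 61.7] of 1154 and 38.2% [35.3 to 41.1] of 1110, and in control cluster 1 the share was 95.2% [92.4 to 97.2]. Without thinning the basal-like shares were 38.6% and 5.36% and the suprabasal-like ones 66.2% and 50.8%, at median depths of 3843 and 4496 UMIs and of 5600.5 and 6266 UMIs. Thinning left out 406 and 273 basal-like and 140 and 39 suprabasal-like cells. Macrophage-like cells, which should lack the gene, gave 0 of 57 control cells, which allows up to 5.26%, and 4 of 186 progesterone cells (2.15% [0.589 to 5.41]), at medians of 1467 and 1757.5 UMIs. The progesterone basal-like share lies within that background interval. As levels, macrophage-like cells read 18.5 CPM [6.80 to 40.3] and 12.1 CPM [6.24 to 21.1] of Spink5, below the 625 and 29.98 CPM of basal-like cells. Erythrocyte-like cells, which should also lack Spink5, read 25.7 CPM with progesterone, from 19 UMIs over 143 cells. By its share the progesterone basal-like value is not above background. By its level it is above macrophage-like cells but close to erythrocyte-like cells. The part of background in the folds that rest on this value was not tested.

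Spink12 was highest in clusters 10 and 20. Control levels were 1706 CPM [1663 to 1749] in cluster 10 and 2755 CPM [2598 to 2918] in cluster 20, against 228 CPM [218 to 239] in suprabasal-like and 55.3 CPM [49.6 to 61.5] in basal-like cells. Within the control, cluster 10 was 7.48-fold [7.09 to 7.89] and cluster 20 12.1-fold [11.2 to 13.01] above suprabasal-like cells. Genes called higher there were 6.36% of 10725 for cluster 10 and 7.21% of 10076 for cluster 20. Spink5 ran the other way. It was 2.75-fold lower in cluster 10 and 9.15-fold lower in cluster 20 than in suprabasal-like cells, where 1.79% and 14.5% of genes were called lower.

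Progesterone squamous cells had almost no Spink12. The suprabasal-like class held 5 UMIs (0.657 CPM [0.213 to 1.53]) and the basal-like class 11 (0.684 CPM [0.342 to 1.22]). That is 347-fold [149 to 1071] and 80.8-fold [44.6 to 163] below the control. Within cluster 0 the control had 463 UMIs over 127 cells and the progesterone library 3 UMIs over 1103 cells. The ratio of control to progesterone was 1730 [588 to 8422]. Only 43 of those control cells had a UMI. Of these, 12 cells held 77.3% of the UMIs, and 1 cell held 124. Cluster 5 had 114 UMIs and 0, at least 38.7-fold lower against a floor of 3 counts in the progesterone cells. Elsewhere in that library the gene was found, as 21 of 36 progesterone cells of cluster 10 and 10 of 16 of cluster 20 had a UMI, at 1360 CPM [1244 to 1484] and 683 CPM [579 to 801]. With clusters 10 and 20 counted as suprabasal-like, the log2 ratio was -3.26 in place of -8.30.

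Spink12 UMIs were also seen in control cells that should lack it. Neutrophil-like cells read 32.4 CPM [13.04 to 66.8] and macrophage-like cells 18.5 CPM [6.80 to 40.3] in the control, both had 0 UMIs with progesterone, and blood endothelium-like cells read 389 CPM from 27 UMIs in 2 of 45 cells. Control erythrocyte-like cells gave 1027 CPM of inhibitor, of which 90.4% was Spink5 and the rest Spink12. The control basal-like level of 55.3 CPM lies within the neutrophil-like interval, and the part of free RNA in it was not tested. After thinning, 7.15% [5.62 to 8.95] of control basal-like and 14.4% [12.4 to 16.5] of suprabasal-like cells had a UMI (9.24% and 20.7% unthinned), against 1 of 57 macrophage-like cells (1.75% [0.0444 to 9.39]). In cluster 10 the thinned share was 39.3% [35.1 to 43.6] of 537 control cells. The UMIs were uneven among cells, since 129 of 598 control cells of cluster 10 held 10 or more and together 92.1% of that cluster's Spink12 UMIs.

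**Figure D4:**
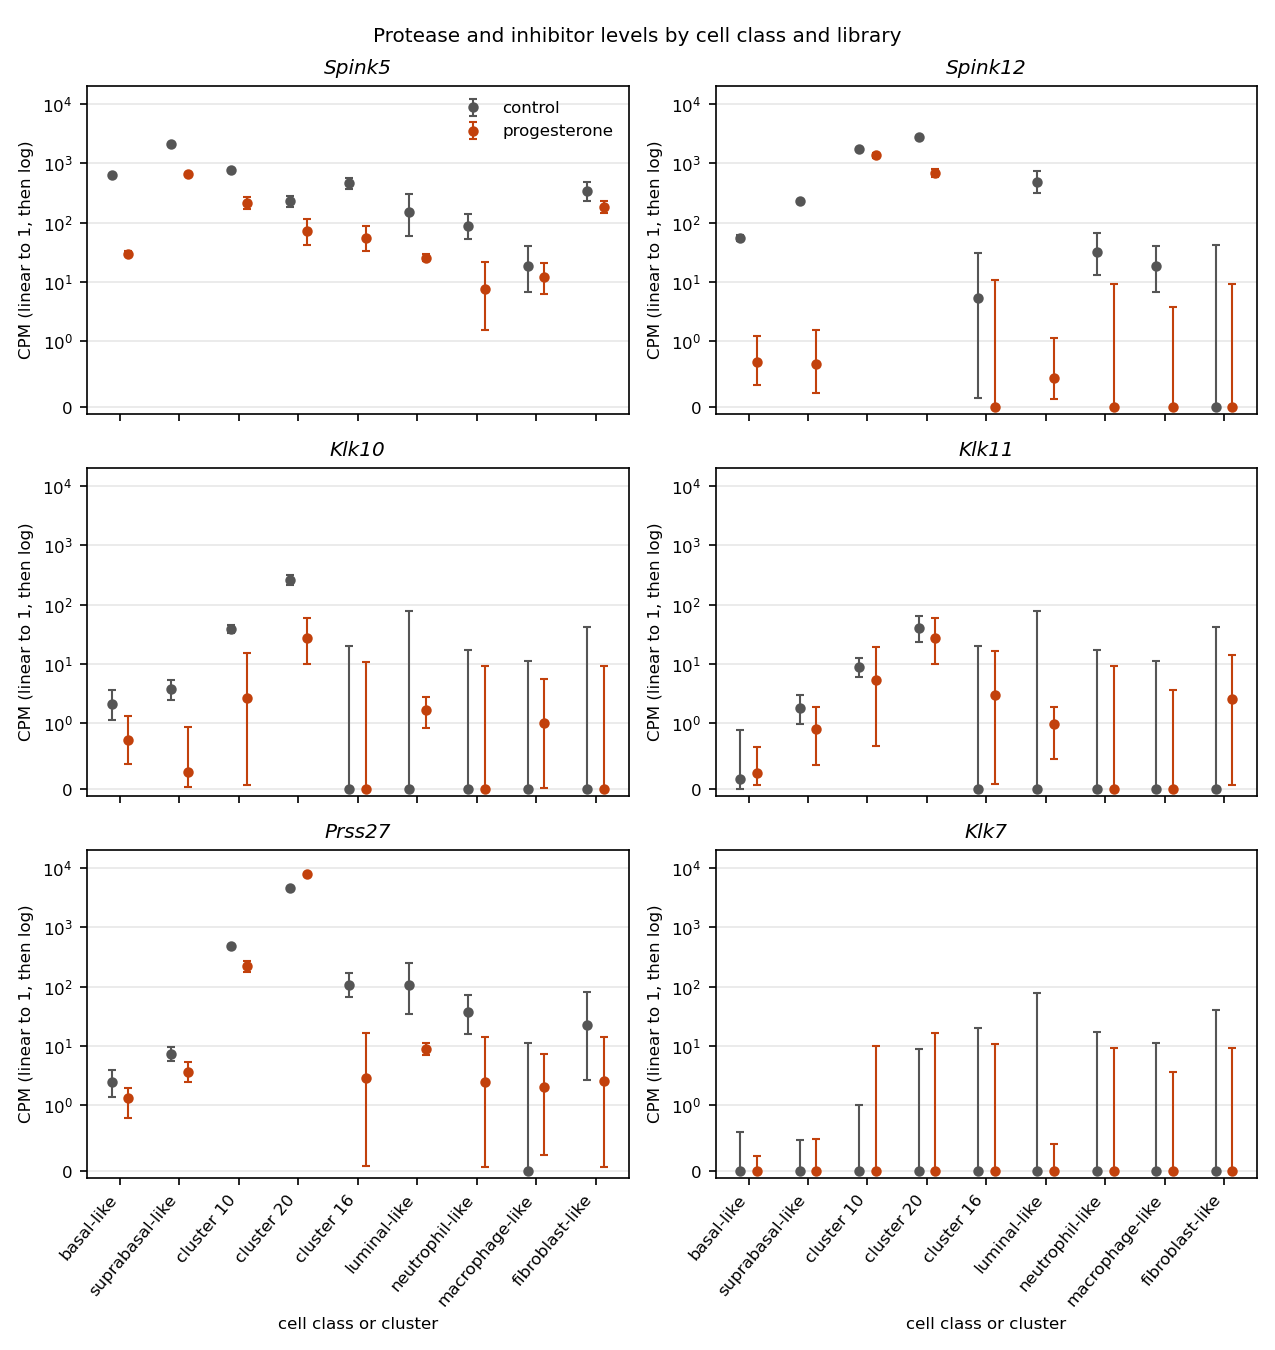
Levels of the 6 genes (CPM, linear up to 1 and log above) in 9 cell classes or clusters of each library, with exact Poisson 95% intervals. Spink5 was highest in suprabasal-like cells, Spink12, Klk10, Klk11 and Prss27 were highest or among the highest in clusters 10 and 20, and Klk7 was at 0 UMIs throughout, with upper bounds set by depth.

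Prss27 supplied most protease transcripts, 91.2% of control and 96.5% of progesterone protease UMIs. It was sharply placed. Control cluster 20 read 4544 CPM [4342 to 4753] and control cluster 10 478 CPM [456 to 501], against 7.45 CPM [5.66 to 9.63] in suprabasal-like and 2.43 CPM [1.36 to 4.01] in basal-like cells. Cluster 20 was 610-fold [470 to 806] above suprabasal-like cells and 9.51-fold [8.90 to 10.2] above cluster 10, where 4.5% of 8994 genes were called higher and 14.4% lower. With 1.40% of the control's cells it held 50.5% of the control's Prss27 UMIs, and cluster 10 held 46.1%. The share of cells depended on the settings. Without doublet removal the cluster highest in Prss27 held 142 control cells (2.98%) and 53.1% of the UMIs, and at resolution 0.5 it held 2.88% of cells and 83.0% of the UMIs. All 64 control cells of cluster 20 had a Prss27 UMI, with a median of 23 and at most 120. After thinning, 57 of 60 did, against 25.9% [22.2 to 29.8] in cluster 10, 0.867% [0.416 to 1.59] in suprabasal-like and 0 of 57 in macrophage-like cells.

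In the progesterone library 16 cells of cluster 20 read 7791 CPM [7429 to 8167] and held 1734 of the 1955 Prss27 UMIs. With so few cells the 2 libraries were not compared there. Of these 16 cells 15 had a UMI, with a median of 121.5 per cell. Progesterone cluster 10 read 219 CPM [174 to 272], suprabasal-like cells 3.68 CPM [2.45 to 5.32] and luminal-like cells 8.86 CPM [7.02 to 11.03], with 78 of 1700 luminal-like cells holding a UMI. Neutrophil-like cells, which should lack the gene, gave 37.1 CPM [16.01 to 73.1] in the control. They gave 2.51 CPM [0.0636 to 14.0] with progesterone. The basal-like and suprabasal-like levels of each library and the progesterone luminal-like level do not lie above these intervals and cannot be told from background, although that luminal-like level lies above the interval of macrophage-like cells with progesterone (2.01 CPM [0.244 to 7.26]). In cluster 16 Prss27 was at 109 CPM [66.3 to 168] in the control and 2.94 CPM (1 UMI) with progesterone, a ratio of control to progesterone of 36.9 [5.90 to 1530]. The control interval overlaps that of neutrophil-like cells, and the progesterone level lies within theirs. Neutrophil-like Prss27 was itself 14.8-fold [1.98 to 655] lower with progesterone, and the part of background in the cluster 16 ratio was not tested. The library-wide Prss27 difference depended on cluster 20. Without it the log2 ratio was -4.01 in place of -1.87, while without cluster 10 it was -1.31.

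Klk10 and Klk11 followed Prss27 at far lower counts. Klk10 read 260 CPM [214 to 314] in control cluster 20 (109 UMIs in 15 of 64 cells) and 38.9 CPM [32.7 to 45.9] in cluster 10 (141 UMIs in 53 cells). In suprabasal-like cells it read 3.72 CPM [2.49 to 5.35] and in basal-like cells 2.11 CPM [1.12 to 3.60], and these intervals overlap. Cluster 20 was thus 69.9-fold [46.1 to 109] above suprabasal-like cells. Most of its UMIs there came from few cells, as 4 cells held 64.2% of them. With progesterone the gene had 6 UMIs in 3 cells of cluster 20, 12 in basal-like, 15 in luminal-like and 2 in suprabasal-like cells. The suprabasal difference, 29 against 2 UMIs, was a ratio of control to progesterone of 14.2 [3.59 to 123]. The basal one, 13 against 12 UMIs, was 2.82-fold [1.19 to 6.77] lower and not called. Control neutrophil-like and macrophage-like cells held 0 UMIs of Klk10 and Klk11. Control blood endothelium-like cells held 2 UMIs of these kallikreins, 28.8 CPM, above the Klk10 level of either squamous class. The part of background in the squamous Klk10 levels was not tested.

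Klk11 gave 17 UMIs in 15 of 64 control cells of cluster 20 (40.6 CPM [23.7 to 65.0]) and 32 UMIs in cluster 10 (8.82 CPM [6.04 to 12.5]). Cluster 20 was 22.6-fold [10.5 to 49.5] and cluster 10 4.91-fold [2.55 to 9.95] above suprabasal-like cells. With progesterone, cluster 20 had 6 UMIs in 3 cells, and the basal-like, suprabasal-like and luminal-like classes had 4, 7 and 9. Its difference between libraries was not detectable at this depth in either squamous class (14 and 7 UMIs in suprabasal-like cells, 1 and 4 in basal-like cells). In control cluster 20, thinned to equal depth, all 10 cells with Klk10 and all 4 with Klk11 also had Prss27, which 57 of the 60 cells had in any case. Spink12 was found in 33 of those 57 Prss27 cells.

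The balance of protease to inhibitor is given here as the summed UMIs of the 4 proteases over those of the 2 inhibitors. Transcript counts do not give enzyme activity, and capture differs between genes, so the balance is compared between places rather than read as such. In the control it was 0.00691 [0.00462 to 0.00994] in basal-like and 0.00563 [0.00458 to 0.00685] in suprabasal-like cells, or 145 and 178 inhibitor UMIs per protease UMI. Cluster 10 stood at 0.214 [0.203 to 0.224] and cluster 20 at 1.63 [1.51 to 1.75], the only one of these control groups with more protease than inhibitor UMIs. Inhibitor was not scarce in cluster 20 (2982 CPM against 2304 CPM in suprabasal-like cells), but 1153 of its 1248 UMIs were Spink12. The share of Spink5 among inhibitor UMIs was 90.1% in suprabasal-like cells, 30.7% in cluster 10 and 7.61% in cluster 20.

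With progesterone the balance was 0.0751 [0.0522 to 0.105] in basal-like cells, 10.9-fold above the control on 29 and 37 protease UMIs (log2 difference 3.44 [2.68 to 4.21]). Protease levels there were 4.70 and 2.30 CPM and inhibitor levels 680 and 30.7 CPM, control first. Both protease levels lie within or below the neutrophil-like Prss27 intervals (37.1 CPM [16.01 to 73.1] and 2.51 CPM [0.0636 to 14.0]), so this balance sets protease at background against inhibitor and its fold is not one of detected protease. In suprabasal-like cells the balance was 0.00724 [0.00509 to 0.009996], and the log2 difference of 0.36 [-0.22 to 0.92] spans 0. Without cluster 1 that difference was -0.65, in the other direction. Cluster 20 reached 10.4 [8.87 to 12.2] on 16 cells and cluster 10 was at 0.144 [0.113 to 0.182]. Luminal-like cells were at 0.443 [0.348 to 0.560], with 0.173 [0.119 to 0.245] in cluster 18, led by Agr2, Muc5b and Spdef, and 4.33 [2.44 to 8.18] in cluster 19, led by Clca1, Gp2 and Pigr, on 65 protease and 15 inhibitor UMIs. Levels in cluster 19 were 15.4 CPM of protease, of which Prss27 at 12.6 CPM lay within the neutrophil-like interval, and 3.56 CPM of inhibitor, below the Spink5 of macrophage-like cells (12.1 CPM). That neutrophil-like interval rests on 1 UMI, and the Prss27 level of cluster 19 lay above the macrophage-like interval given earlier for Prss27 with progesterone. The inhibitor side of this balance is thus at background. The protease side lies within 1 background class and above the other.

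Over all analysed cells the balance was 0.123 [0.119 to 0.127] in the control and 0.297 [0.283 to 0.313] with progesterone, a log2 difference of 1.27 [1.18 to 1.36]. This direction rested on cluster 20, since without its 64 and 16 cells the difference was -0.63 [-0.82 to -0.45]. Without cluster 10 it was 1.78.

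**Figure D5:**
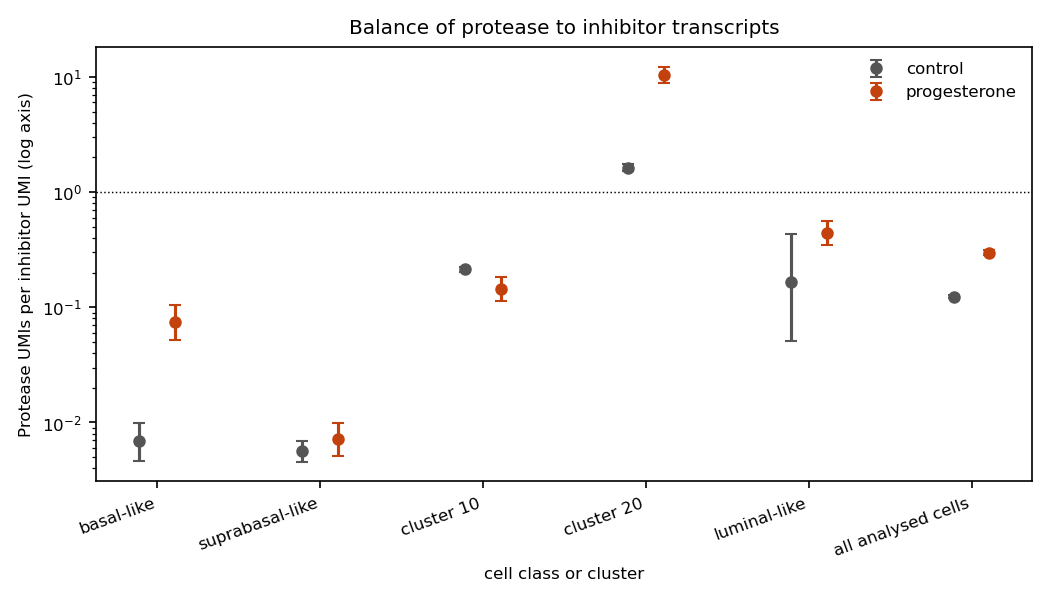
Protease UMIs (Klk7, Klk10, Klk11, Prss27) per inhibitor UMI (Spink5, Spink12) on a log axis, by cell class or cluster and library, with exact conditional binomial 95% intervals; the dotted line marks equal counts. Cluster 20 lay above the line in both libraries (1.63 and 10.4), and basal-like cells differed most between libraries of the plotted groups with at least 50 cells in each.

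Among the other 10 kallikreins, Klk4, Klk5, Klk6 and Klk15 had 0 UMIs in both libraries. Klk5 encodes the trypsin-like enzyme that starts the kallikrein cascade of skin, and like Klk7 it was not detected. Control cluster 20 was instead rich in Klk13 (561 CPM [492 to 638]) and Klk8 (389 CPM [332 to 454]), with Klk12 at 38.2 CPM and Klk14 at 31.1 CPM. The 16 progesterone cells of that cluster read 44.9 CPM of Klk13 and 4.49 CPM of Klk8. Over all cells Klk13 was 33.0-fold [22.4 to 50.7] lower with progesterone (471 and 27 UMIs), the only one of 4 measured kallikreins called. Klk1, also among these 4, went the other way, 3.06-fold [1.89 to 5.20] higher on 20 and 116 UMIs, and was not called. In suprabasal-like cells Klk13 was also the one called of 2, and in basal-like cells 0 of 3 were called, where Klk8 read 27.1 and 23.5 CPM. Of all genes, 3.49% were called lower over all cells, 2.81% in suprabasal-like and 3.43% in basal-like cells.

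Of 11 other epithelial serine proteases, 8 had at least 20 UMIs in each squamous class, and 2 in basal-like and 1 in suprabasal-like cells were called lower with progesterone, none higher. Over all genes 3.43% were called lower and 2.39% higher in basal-like cells, and 2.81% and 3.5% in suprabasal-like cells. Tmprss11d, a membrane-bound trypsin-like protease, read 65.6 and 11.2 CPM in suprabasal-like cells, 5.88-fold [4.66 to 7.48] lower. Tmprss4 was 2.92-fold [2.31 to 3.70] lower in basal-like cells. St14, which encodes matriptase, read 57.4 and 54.5 CPM in suprabasal-like cells and was not called. In cluster 20 Prss22 was also high. Control cells read 1030 CPM [935 to 1132] and progesterone cells 3298 CPM [3064 to 3545]. The median log2 ratio of the list was 0.39 in basal-like and -0.19 in suprabasal-like cells, beside 0.01 and 0.18 over all genes.

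Other inhibitors did not share one direction. Of 8 measured in suprabasal-like cells 2 were called higher and 4 lower with progesterone, and of 7 in basal-like cells 2 higher and 1 lower. Genes called higher were 3.5% of all in suprabasal-like and 2.39% in basal-like cells. Spint2, a Kunitz-type inhibitor of matriptase and prostasin, read 82.1 and 253 CPM in suprabasal-like cells, 3.08-fold [2.82 to 3.37] higher. Wfdc2, a secreted protein with a whey acidic protein domain, was 10.7-fold [9.99 to 11.6] higher there and 2.81-fold [2.68 to 2.95] higher in basal-like cells. Serpinb5 (maspin) was lower in both classes, 2.99-fold [2.77 to 3.24] in suprabasal-like and 3.37-fold [3.14 to 3.62] in basal-like cells, and Wfdc18 was 4.87-fold [4.58 to 5.18] lower in suprabasal-like cells. Within cluster 0, Spint2 and Wfdc2 were again called higher and Wfdc18 lower, while Serpinb5 was 1.91-fold [1.58 to 2.28] lower and not called. Of the 10 other Spink genes, 2 had at least 20 UMIs over all cells, and both were higher with progesterone. Spink4 had 3 and 143 UMIs, a ratio of 25.2 [8.44 to 123], and 123 of the 143 lay in luminal-like cells, which the control nearly lacked.

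Genes of adhesion proteins that kallikreins cut were also lower. Of the 6 genes of that list, 5 of 6 measured over all cells were called lower, 3 of 5 in suprabasal-like and 2 of 3 in basal-like cells, none higher. Over all genes 3.49%, 2.81% and 3.43% were called lower. Dsg1a, a desmoglein of the upper layers, read 63.7 and 1.84 CPM in suprabasal-like cells, 34.6-fold [20.4 to 63.8] lower, and Dsg1b 85.8 and 14.7 CPM, 5.83-fold [4.77 to 7.19] lower. Control cluster 1 alone read 149 CPM of Dsg1a and 190 CPM of Dsg1b, and within cluster 0 none of the 3 measured genes was called. Cdsn, which encodes corneodesmosin, had 56 of its 60 control UMIs in cluster 20, at 134 CPM [101 to 174], where Dsg1a and Dsg1b had 0. The receptor gene F2rl1 was not called in any of these classes.

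The genes whose levels were most like each member were taken from 3989 genes over 28 cluster and library groups of at least 50 cells, by Pearson's r of log2(CPM + 10). These groups share 2 libraries and a few high points, so r is a description. Spink5 was most like Krt6a (0.88), Lypd3 (0.83) and Krt6b (0.79), and Spink12 was most like Sprr2f (0.90), Sprr2a3 (0.85) and Sprr2d (0.85), which encode cornified envelope proteins. Klk10 was most like Clca3b (0.98), Tmprss11e (0.97) and Slc26a4 (0.97). Klk11 was most like Tmprss11e (0.97), Gm9573 (0.96) and Prss22 (0.95). Prss27 was most like Psca (0.97), Mmp7 (0.94) and Mal (0.94). Between members, r was 0.94 for Klk10 and Klk11, 0.87 for Klk10 and Prss27, 0.66 for Spink12 and Prss27, 0.60 for the 2 inhibitors and 0.28 for Spink5 and Prss27.

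Under each of 5 other settings of filtering and clustering, the cluster with the highest Prss27 had Crct1, Cnfn, Lce3a and Lce3b among its top 10 genes. With libraries clustered apart, that cluster was taken from the control alone. Over the 5 settings the cluster held 51.7 to 83.0% of control Prss27 UMIs. Its protease to inhibitor balance was 1.30 to 2.65 over both libraries in 4 of them, beside 2.67 at the settings used here, and 1.64 in the control clustered on its own. In the progesterone library clustered on its own, a cluster of 83 cells had Prss27 among its top 10 genes. Psca, Ppbp and Clca3b were also among these, but not Crct1, Cnfn, Lce3a or Lce3b.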

How the data were processed

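The deposited matrices hold whole UMI counts per gene and cell, made by the authors with Cell Ranger 3.0.2 on mm10, per the submitters' processing notes. Cells came from cold protease digestion and 10x 3′ v3.1 libraries, per the labels' protocols. Barcodes under 200 genes or over 20% mitochondrial UMIs were left out, as were those with the highest Scrublet doublet scores, at a rate that grew with cell number (181 control and 680 progesterone cells, 3.80% and 7.37%). Counts were scaled to 10000 and log-transformed, and 2000 variable genes without members, listed or mitochondrial genes gave 30 components, 15 neighbours and Leiden clusters at resolution 1 (scanpy 1.11.5, numpy 2.4.6, scipy 1.17.1, igraph 0.11.9, python 3.11.15).

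Clusters were named from 15 marker classes where the score reached 0.75, led the next class by 0.5 and rested on 3 detected markers, thresholds set after the clusters were seen. Counts were summed per class and library. Ratios needed 20 UMIs to be tested for a call and 50 cells in each library, and a 0 allows 3 counts. The script was checked on simulated data.

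Members and lists were chosen with earlier results of these data known. Listed genes were named where one library of an epithelial class had 100 UMIs and the ratio interval lay past 2-fold, up to 6 per list, and for each member the 3 genes most alike among those reaching 100 CPM. Other listed genes named (Klk5, Klk8, Klk12, Klk14, St14, Prss22, Cdsn, F2rl1, Spink4) and the leaving out or pooling of clusters were chosen after the values were seen.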

Additional observations from a re-analysis of the deposited data

How the results depend on the processing

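Of 248 alternative values for 41 results, 164 stayed within counting error (counts of genes, within a fixed factor), 83 moved further and 1 changed sign. All 139 alternatives for the 19 member ratios between libraries kept the direction (lower with progesterone). Klk11 in basal-like cells was not among these ratios. On 1 and 4 UMIs its log2 ratio was 0.20, the other direction. The log2 ratio of Spink5 in basal-like cells (-4.38) was -6.26 with a stricter filter (500 genes, 10% mitochondrial UMIs), -4.05 without doublet removal, -3.94 at resolution 0.5, -5.90 with libraries clustered apart, -4.18 with the other denominator (no mitochondrial, ribosomal protein or top 20 genes) and -4.06 as a mean over cells. In suprabasal-like cells (-1.63) it was -2.29, -1.98, -1.51, -2.89, -1.49 and -1.28 in the same order, -1.05 at resolution 2, -0.26 without cluster 1, -1.80 within cluster 0 and -1.34 with clusters 10 and 20 added. The log2 difference in balance in basal-like cells (3.44) was 5.20 with the stricter filter and 4.67 with libraries apart. In suprabasal-like cells (0.36) it was 1.43 and 1.74, -0.65 without cluster 1 and 1.15 with clusters 10 and 20. In both squamous classes together (1.17) it was 1.86, 1.60 without doublet removal, 1.66 at resolution 0.5 and 1.82 apart. Over all cells (1.27) it was 1.79 with the stricter filter, 0.37 as a mean over cells, 1.78 without cluster 10 and -0.63 without cluster 20. Of the listed genes, 5 were called lower in basal-like cells and 3 at resolution 0.5. In suprabasal-like cells 2 were called higher, 4 without doublet removal and 1 with clusters 10 and 20. There 9 were called lower, 4 without cluster 1 and 2 within cluster 0. Apart from alternatives that use fewer cells by construction, the cause was not tested.

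No paired analysis was possible because each group is 1 library. Depth limits the proteases in squamous cells, where control basal-like cells held 15 Prss27, 13 Klk10, 1 Klk11 and 0 Klk7 UMIs.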
